A study of Mus musculus with 4 samples.

Results

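Mouse aldo-keto reductase genes of the Akr1 family were followed in NIH3T3 cells that express Ctcfl. The set was chosen by name around Akr1c18 and comprised 10 genes, Akr1c18, Akr1c6, Akr1c12, Akr1c13, Akr1c14, Akr1c19, Akr1b3, Akr1b7, Akr1b8 and Akr1a1, of 19938 named genes measured. Akr1c18 drew attention to the family because of its difference between the groups, so the values of the members in that comparison are a description and support nothing. A probe set with a single gene symbol was present for 8 members, 1 probe set each, so the rule of keeping the brightest probe set made no choice among them. Akr1b3, the aldose reductase, and Akr1b7, a relative abundant in the vas deferens and adrenal gland, had no probe set named here and were not analysed.

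All cells came from 1 stable clone of NIH3T3, an established line of mouse fibroblasts, with the integrated vectors pBI-EGFP-FLAG-mCtcfl and pTA-N, which control and induced cells carried alike. Ctcfl encodes CTCFL, or BORIS, a DNA-binding protein of the germ line related to the insulator protein CTCF. In this Tet-Off system the 2 control samples received 2 µg/ml doxycycline, which represses the transgene, and the 2 Ctcfl samples were kept without the drug for 48 h. Removal of doxycycline, induction of Ctcfl and any change in the EGFP named in the vector therefore cannot be told apart. No label ties the replicates to different cultures, so errors and p-values describe the spread between arrays, which may be technical. Each value below is an RMA expression value on the log2 scale, normalised between arrays, for which 1 unit is a doubling.

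Aldo-keto reductases are cytosolic enzymes that use NADPH or NADH to reduce aldehydes and ketones to alcohols. Enzymes of the Akr1c group act on steroids and prostaglandins, and several control how much active hormone reaches its receptor, while Akr1b and Akr1a enzymes act mainly on sugars, lipid aldehydes and other small carbonyls. Akr1c18 encodes 20-alpha-hydroxysteroid dehydrogenase, which converts progesterone to a form that binds its receptor poorly, and its induction in the mouse corpus luteum precedes birth. The Akr1c genes form a cluster of tandem copies on chromosome 13, whereas Akr1b7 and Akr1b8 lie on chromosome 6 and Akr1a1 on chromosome 4.

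The start regions of 4 cluster genes are shown. Akr1c18 had the largest fall, and Akr1c14 is its neighbour with little difference. Akr1c13 and Akr1c12 are near copies with dim probe sets, whose values do not set them apart. Each is the RefSeq window of GRCm38.p6 from 250 bases before the annotated start to 50 bases after it, 300 bases read 5′ to 3′ along the gene. The windows are chr13:4150597-4150896 on the minus strand for Akr1c18, chr13:4059341-4059640 on the plus strand for Akr1c14, chr13:4190937-4191236 on the plus strand for Akr1c13 and chr13:4279350-4279649 on the minus strand for Akr1c12. Capitals mark matches to the motif words described next.
Akr1c18: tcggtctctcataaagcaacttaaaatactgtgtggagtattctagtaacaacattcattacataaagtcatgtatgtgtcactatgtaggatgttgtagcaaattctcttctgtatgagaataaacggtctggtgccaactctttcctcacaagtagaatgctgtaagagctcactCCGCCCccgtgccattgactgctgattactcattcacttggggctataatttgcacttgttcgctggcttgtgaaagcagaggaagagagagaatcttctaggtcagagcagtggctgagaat
Akr1c14: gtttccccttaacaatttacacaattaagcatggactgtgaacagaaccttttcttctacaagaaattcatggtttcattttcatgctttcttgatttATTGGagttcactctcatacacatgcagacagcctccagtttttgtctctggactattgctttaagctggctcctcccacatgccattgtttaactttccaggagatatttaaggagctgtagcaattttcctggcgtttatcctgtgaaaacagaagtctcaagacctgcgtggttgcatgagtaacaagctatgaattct
Akr1c13: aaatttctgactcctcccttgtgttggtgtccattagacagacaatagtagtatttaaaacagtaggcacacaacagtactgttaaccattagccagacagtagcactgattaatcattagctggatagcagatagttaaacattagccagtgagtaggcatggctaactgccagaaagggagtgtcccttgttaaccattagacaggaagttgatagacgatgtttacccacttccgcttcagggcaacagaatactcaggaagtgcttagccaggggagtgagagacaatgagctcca
Akr1c12: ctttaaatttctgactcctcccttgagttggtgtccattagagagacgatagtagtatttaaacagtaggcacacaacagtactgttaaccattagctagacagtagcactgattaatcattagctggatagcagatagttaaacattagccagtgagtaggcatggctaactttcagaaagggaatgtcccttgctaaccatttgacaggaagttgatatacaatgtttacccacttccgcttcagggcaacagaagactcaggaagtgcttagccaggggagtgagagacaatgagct

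The windows of Akr1c13 and Akr1c12 shared 284 of 304 alignment columns, an identity of 93.4% with 12 mismatches and 8 gap columns. Akr1c18 was far from either, with 50.7% identity to Akr1c13 and 51.9% to Akr1c12, and its closest window among the members was that of Akr1c14 at 55.6%. Unrelated windows of the family gave similar figures (47.8% between Akr1b8 and Akr1c6), so identities near 50% show no relation. A window was found for 9 of the 10 members, Akr1b3 being the exception. Searched on both strands were the CTCF core word AGGGGGC, the antioxidant response element TGACNNNGC, the GC box GGGCGG, the TATA box TATAAA and the CCAAT box CCAAT, none of which contains another. The Akr1c18 window held a single match, a GC box on the opposite strand whose first base lies at -73 from the start, and 35.9% of all 27025 windows hold that word. The Akr1c14 window held only a CCAAT box, at -152, a word present in 37.9% of windows. Neither Akr1c13 nor Akr1c12 had a match. The CTCF core word was in none of the 9 windows and in 10.5% of all windows, and the antioxidant word, present in 12.5%, was found only in the window of Akr1c19. These letter matches describe the windows and do not bear on binding by any factor.

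Before the members, the labels and cells were checked. Ctcfl measured 7.77 and 7.71 on the control arrays against 10.37 and 10.35 on the Ctcfl arrays. The control values already lay above the upper quartile of probe sets, and the source of that signal was not tested. All 9 fibroblast markers lay above the upper quartile of probe sets, which was 7.40 to 7.43 on the 4 arrays, and 7 were lower and 2 higher in the Ctcfl arrays, with a median log2 difference of -0.09. At an unadjusted p under 0.05, which 10.7% of all genes had, there were 3 of them. These were the growth factor receptors Pdgfrb (-0.56, adjusted p = 0.180) and Pdgfra (-0.29, adjusted p = 0.387) and the collagen Col3a1 (-0.38, adjusted p = 0.288), none past the adjusted threshold of limma. None of the 6 measured markers of steroidogenic cells passed the adjusted threshold, nor any of the 6 epithelial, 4 hepatocyte, 6 macrophage or 5 endothelial markers. Of these, only the epithelial marker Krt8 had an unadjusted p under 0.05. The epithelial markers, summed on the linear scale, came to 184 to 205 on the control arrays and 217 to 224 on the Ctcfl arrays, but 3 were higher and 3 lower with a median of 0.02. The keratin gene Krt8 had the largest difference (0.58, SE 0.14, adjusted p = 0.312 by limma), while Krt19 had -0.19, Epcam -0.04 and Cldn4 -0.01. The part of these fibroblast and epithelial markers in the results below was not tested. In the fit with limma across all genes, described below, 9 genes passed an adjusted p of 0.05. The correlation between arrays of a group was 0.997 for control and 0.996 for Ctcfl, and 0.995 across groups.

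Akr1c18 was the most strongly lowered gene of the table. Its values were 10.03 and 9.97 on the control arrays and 8.75 and 8.77 on the Ctcfl arrays. Both Ctcfl arrays lay far below both controls, and replicates of a group were nearly equal. The mean of the Ctcfl arrays was 8.76 ± 0.01, against an SD of 0.04 between the controls (n = 2 per group), which gave a log2 difference of -1.24 with a standard error of 0.08 in the fit, or 2.36-fold lower. Of the 4 differences between a Ctcfl and a control array, the smallest in size was -1.20 and the largest -1.28. It ranked 1 of 19938 from the largest fall and 7 by absolute difference. The Ctcfl mean of 8.76 still lay above the upper quartile of probe sets. In bulk RNA, fewer cells with a transcript and less transcript per cell cannot be told apart.

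**Figure D1:**
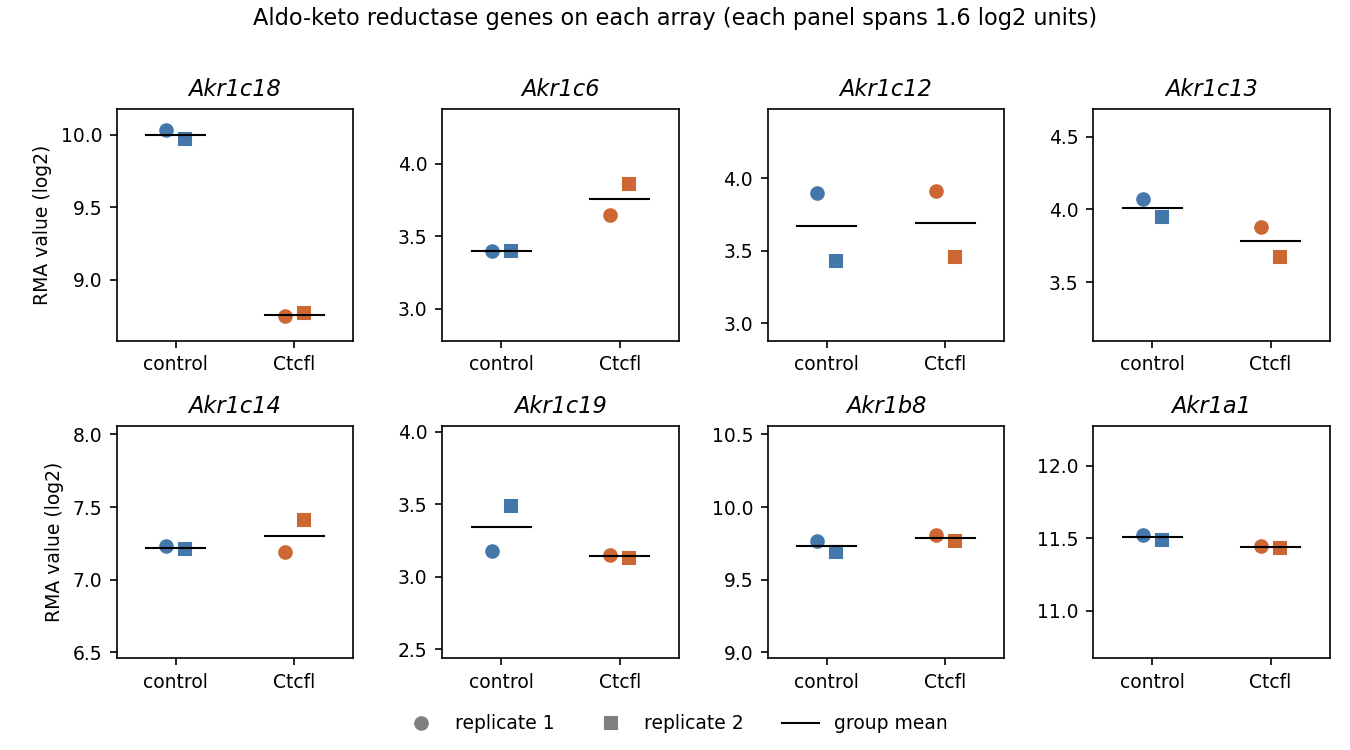
RMA values (log2) of the 8 measured aldo-keto reductase genes on each array, with control arrays in blue, Ctcfl arrays in orange, circles for replicate 1, squares for replicate 2 and lines for group means. Every panel spans the same number of log2 units around its own centre, so distances between points can be compared across panels, but not heights. Only Akr1c18 shows groups more than 1 unit apart (10.03 and 9.97 against 8.75 and 8.77).

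Among the other steroid-metabolising members, Akr1c14, a 3-alpha-hydroxysteroid dehydrogenase that acts on reduced progestins and androgens, is the next gene to Akr1c18 on one side. It measured 7.23 and 7.21 on the control arrays and 7.19 and 7.41 on the Ctcfl arrays. The groups overlapped, and the log2 difference was 0.08 (SE 0.10), from -0.03 without Ctcfl replicate 2 to 0.19 without Ctcfl replicate 1. Its level lay between the median of probe sets, 5.20 to 5.24, and the upper quartile, so this gene was not at the bottom of the array's range.

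Akr1c6, an enzyme also known as type 5 17-beta-hydroxysteroid dehydrogenase, went the other way from Akr1c18. It measured 3.40 on both control arrays and 3.65 and 3.86 on the Ctcfl arrays. The groups did not overlap, and the log2 difference was 0.36 (SE 0.10), or 1.28-fold higher, which put it at rank 291 from the largest rise. All 4 values lay below the lower quartile of probe sets, 4.09 to 4.12, where no detection call was used to separate signal from background. The difference was 0.46 without Ctcfl replicate 1 and 0.25 without Ctcfl replicate 2.

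The near copies Akr1c13 and Akr1c12, with the start regions printed above, had low values too. Akr1c13 measured 4.07 and 3.95 on the control arrays and 3.88 and 3.67 on the Ctcfl arrays. Its groups were separate but close, with a log2 difference of -0.24 (SE 0.11), or -0.13 without Ctcfl replicate 2. Akr1c12 measured 3.90 and 3.43 on the control arrays against 3.91 and 3.46 on the Ctcfl arrays. Its values followed the replicate number and not the group: both replicates numbered 1 were high and both numbered 2 were low, and the log2 difference was 0.02 (SE 0.20). It turned from -0.22 without control replicate 2 and -0.21 without Ctcfl replicate 1 to 0.26 without control replicate 1 and 0.25 without Ctcfl replicate 2. For such similar genes the split of signal between copies is uncertain, and whether the probe sets share probes was not tested.

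Akr1c19, another gene of the cluster, measured 3.18 and 3.49 on the control arrays and 3.15 and 3.13 on the Ctcfl arrays. Both Ctcfl arrays were lower than both controls, but the margin to control replicate 1 was only 0.03, and the log2 difference was -0.20 (SE 0.12). Without control replicate 2, its difference was -0.04. All values of Akr1c13, Akr1c12 and Akr1c19 lay below the lower quartile of probe sets.

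The measured members that act on sugars and small aldehydes, Akr1a1 and Akr1b8, had high and stable values. Akr1a1, the aldehyde reductase that also takes part in making ascorbate in mice, measured 11.52 and 11.49 on the control arrays and 11.45 and 11.43 on the Ctcfl arrays. The groups did not overlap, yet the log2 difference was only -0.07 (SE 0.08), the arrays within a group being nearly equal. Akr1b8, a reductase known as fibroblast growth factor-regulated protein FR-1, measured 9.77 and 9.69 on the control arrays and 9.81 and 9.77 on the Ctcfl arrays. Its groups met at 9.77, and the log2 difference was 0.06 (SE 0.09).

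Across the 8 measured members, 4 values were lower and 4 higher in the Ctcfl arrays, with a median log2 difference of -0.02 beside 0.00 over all genes. The size of the difference, without its sign, had a median of 0.14 among members and 0.10 over all genes. Only Akr1c18 and Akr1c6 differed by over 1.2-fold, a size reached by 8.81% of all genes. Groups did not overlap for 5 members, 4 lower and 1 higher, where 41.1% of all genes had separate groups, 20.6% in each direction. One count was fixed by the choice of the family, the 1 member past an adjusted p of 0.05 by limma, which was Akr1c18 itself, where 0.0451% of all genes passed and 0.015% passed as lower. Since the members come from this comparison, nothing is read from these counts. No gene of the table passed by limma when any of the 4 arrays was left out, namely control replicate 1 (1337 at an unadjusted p under 0.05), control replicate 2 (1329), Ctcfl replicate 1 (1663) or Ctcfl replicate 2 (1402), while the Akr1c18 difference stayed between -1.27 and -1.21. Such a fit has 1 array in a group, assumed to vary like the other group, so the lost calls say little about stability. Nor did any gene pass by limma when all probe sets were fitted separately (2764 unadjusted) or with ordinary t statistics (1940 unadjusted).

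**Figure D2:**
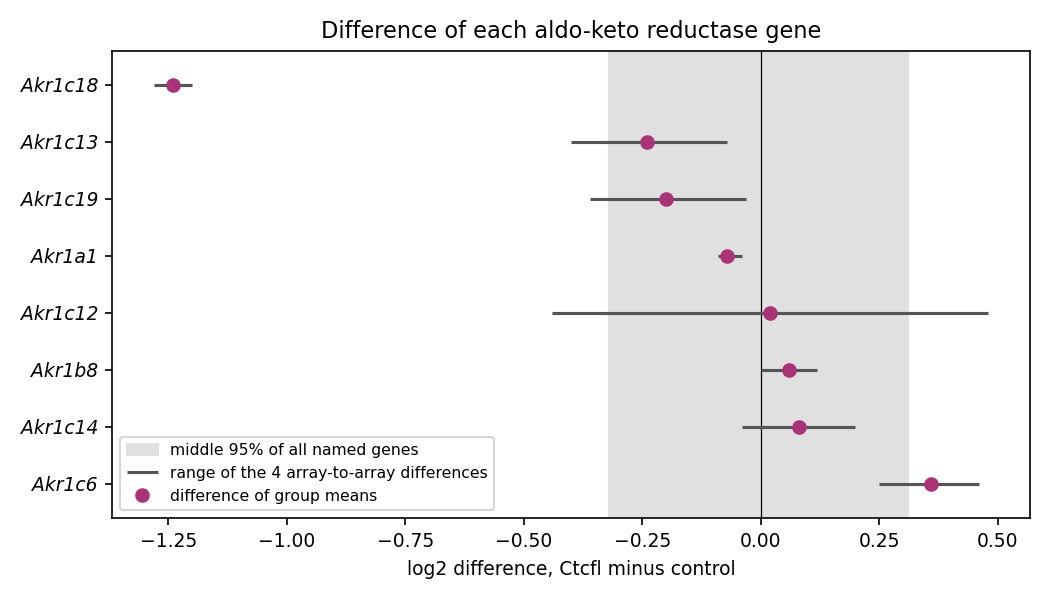
Log2 difference of each measured member, Ctcfl minus control, with points for the difference of group means and bars for the range of the 4 differences between single arrays. The grey band holds the middle 95% of all named genes, from -0.32 to 0.31; Akr1c18 at -1.24 lies far outside it, Akr1c6 at 0.36 just outside, and the other 6 means inside.

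Position in the cluster was examined next, using the order of RefSeq genes. Of the 10 named genes measured on each side of Akr1c18, none passed over all genes by limma and 2 of 20 had an unadjusted p under 0.05, where 10.7% of all genes did. Their median log2 difference was 0.01, from -0.26 to 0.36, with 9 lower values, 10 higher and 1 equal. Of these 20 neighbours, 5 are members described above, and 8 remained without the dimmest 33.3% of genes. A dim probe set leaves little room for a fall, so the values do not show that the difference is confined to Akr1c18. On the side of Akr1c14, the next gene was Ucn3, the peptide hormone urocortin 3, with -0.03 (SE 0.13). On the other side Akr1c13 and Akr1c19 came first. The neighbour with the largest fall was Calm4, a calmodulin-like gene picked out after its value was seen, with -0.26 (SE 0.09, adjusted p = 0.422 by limma). At the far edge of the cluster Akr1c20, Akr1c21 and Akr1e1 had 0.10, 0.10 and -0.10, and Klf6, a zinc finger transcription factor beyond it, had 0.12.

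**Figure D3:**
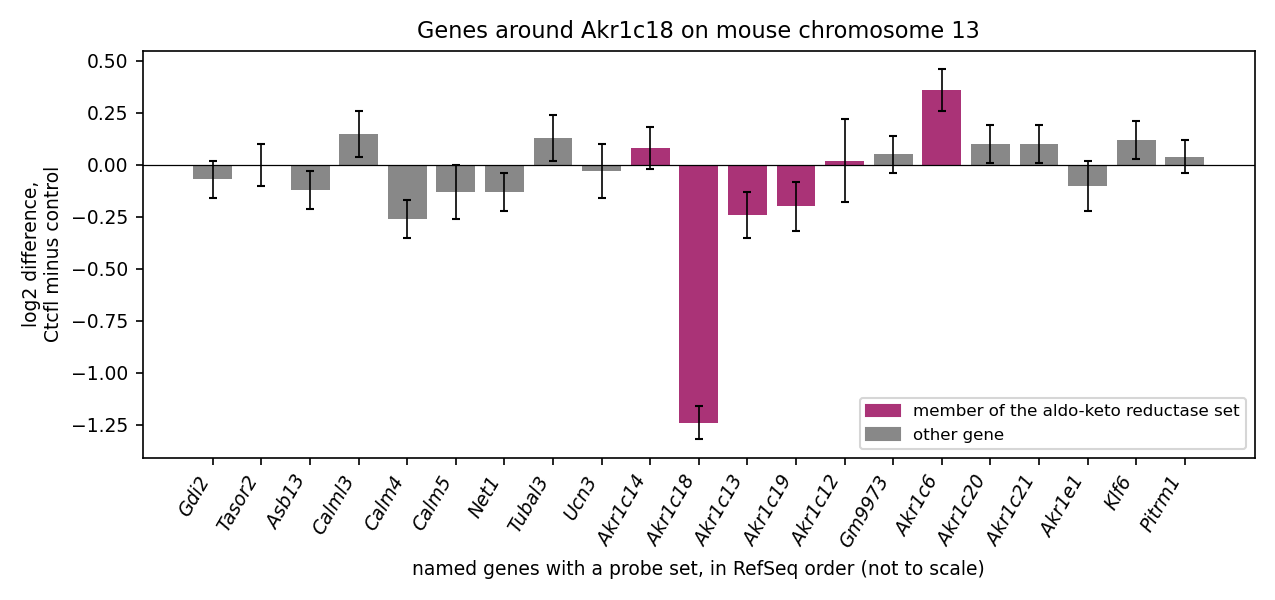
Log2 difference, Ctcfl minus control, of Akr1c18 and the 10 named genes measured on each side of it, in RefSeq order along chromosome 13, with bars for the difference and whiskers for the standard error of the fit (2 arrays per group). Akr1c18 at -1.24 lies between Akr1c14 at 0.08 and Akr1c13 at -0.24. Only 8 of the 20 neighbours remained without the dimmest 33.3% of genes, and a dim probe set leaves little room for a fall.

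The genes whose profile over the 4 arrays was closest to Akr1c18 lay elsewhere. The measure was the Euclidean distance between log2 values centred on each gene's mean, and with 4 arrays in 2 groups it mostly ranks genes by the same fall. The closest was Hgf, the ligand of the Met receptor, at a distance of 0.116, with 7.63 and 7.57 on the control arrays and 6.42 and 6.51 on the Ctcfl arrays. Next came the glycosyltransferase gene Gcnt4 (0.288), Igfbp4, a binding protein of insulin-like growth factors (0.307), Prl2c5 of the proliferin group of prolactin-like genes (0.320) and the metallothionein gene Mt2 (0.326). Prl2c5 has close copies, so its probe set is uncertain. Of the members, Akr1c13 came closest at a distance of 1.019, in place 1172 of 19937 genes, and Akr1c6 was farthest at 1.601, in place 19609.

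Genes that make, convert or sense the substrates of these enzymes were taken as 7 lists with 163 distinct measured genes. None passed over all genes by limma, and 31 had an unadjusted p under 0.05, 14 higher and 17 lower, a share of 19% beside 10.7% of all genes (5.36% higher and 5.32% lower). Without the dimmest 33.3% of genes, 2045 of 13291 genes (15.4%) had an unadjusted p under 0.05, and 32 of 122 list genes did. Values named below are therefore differences that did not pass, with adjusted p-values over all genes by limma. The lists were chosen with earlier results of these data known, so nothing is read from these shares or from those of single lists below.

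Other aldo-keto reductases numbered 10, all measured, with a median of 0.02 and 1 at an unadjusted p under 0.05 (10%, beside 10.7% of all genes). It was Kcnab1, a potassium channel beta subunit with the aldo-keto reductase fold, with -0.32 (SE 0.09, adjusted p = 0.363), while its relative Kcnab2 had 0.20. Steroid hormone synthesis and conversion had 30 of 36 genes measured, of which 12 were higher and 18 lower, with a median of -0.04 and 2 at an unadjusted p under 0.05 (6.67%). Hsd17b10, a mitochondrial dehydrogenase that can oxidise steroids, had -0.37 (SE 0.09, adjusted p = 0.298), Dhrs9, a retinol and steroid dehydrogenase, had 0.24, and Hsd17b7, which also works in cholesterol synthesis, had -0.23. Probe sets for 11 genes of that list lay below the lower quartile. Of 18 steroid receptors and progesterone-binding proteins 17 were measured, with a median of 0.02. An unadjusted p under 0.05 was found for 2 (11.8%, beside 10.7% of all genes), both higher. Esr1, the estrogen receptor alpha gene, had 0.40 (SE 0.09, adjusted p = 0.266), from 4.66 on both control arrays to 5.01 and 5.10. Paqr9, of a family with membrane progestin receptors, had 0.28, and the coactivator gene Ncoa3 had 0.19.

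Prostaglandin synthesis, reduction and receptors had 26 of 28 genes measured, with a median of 0.01. At an unadjusted p under 0.05 there were 4 (15.4%, beside 10.7% of all genes), 3 lower and 1 higher. The lowest was Ptgfr, the receptor of prostaglandin F2-alpha, whose signal induces Akr1c18 in the corpus luteum. It measured 5.49 and 5.48 on the control arrays and 4.88 and 4.98 on the Ctcfl arrays, with separate groups and a log2 difference of -0.56 (SE 0.09, adjusted p = 0.163). Cbr3, a carbonyl reductase of another enzyme family, had -0.55 (SE 0.10, adjusted p = 0.214), and Ptger4, a receptor of prostaglandin E2, had -0.42 (SE 0.10, adjusted p = 0.300).

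Genes known as hormonal regulators of Akr1c18 in the ovary form the list closest to that gene. Of 19 genes 17 were measured, with a median of -0.07. At an unadjusted p under 0.05 there were 4 (23.5%, beside 10.7% of all genes), 1 higher and 3 lower. Besides Ptgfr, these were Jak2, the kinase of the prolactin receptor, with 8.41 and 8.58 on the control arrays against 9.05 and 9.24 (0.65, SE 0.11, adjusted p = 0.183), and the orphan nuclear receptor genes Nr4a2 (-0.40, SE 0.10, adjusted p = 0.326) and Nr4a1 (-0.33, SE 0.09, adjusted p = 0.348). In the ovary prolactin signalling through Jak2 and Stat5 represses Akr1c18, and Nr4a1 activates it, as background. Stat5a had 0.00 and Stat5b 0.10. Among others of the list, Prl had -0.17, Cish -0.16, Socs2 -0.18 and Nr4a3 0.10. Over the list 7 genes were higher and 9 lower. The part of these genes in the Akr1c18 difference was not tested. The prolactin receptor gene had no probe set named here and was not analysed.

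**Figure D4:**
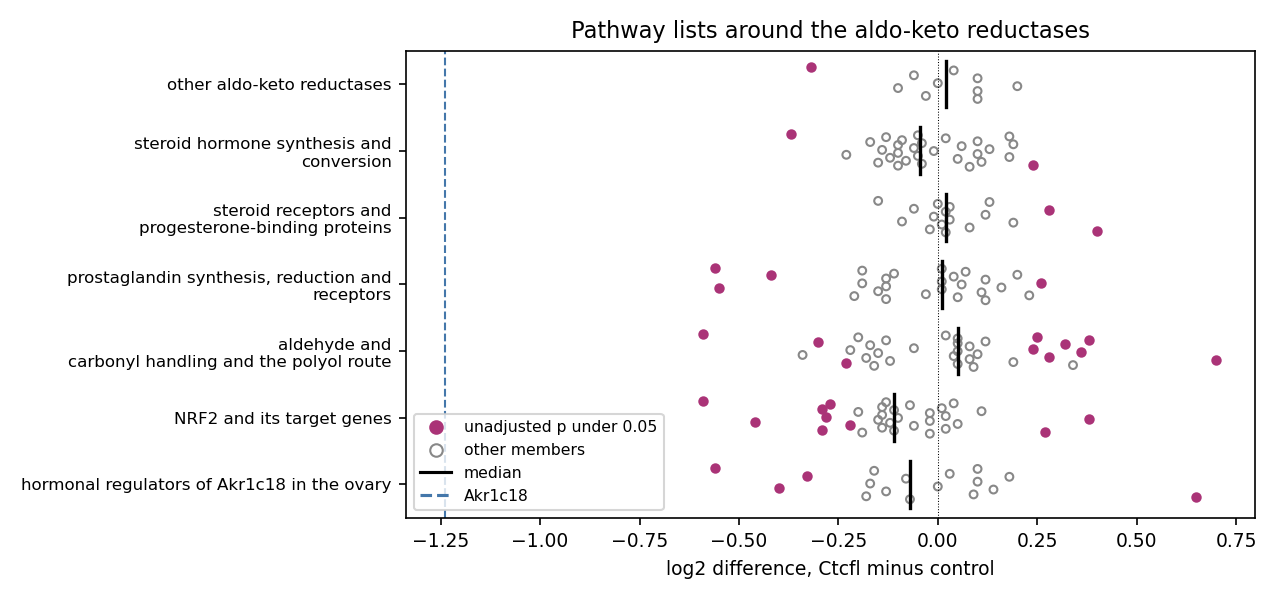
Log2 difference, Ctcfl minus control, of each measured gene in the 7 pathway lists, with filled points for an unadjusted limma p under 0.05, open points for the others, black lines for list medians and a dashed line for Akr1c18 at -1.24. List medians lie between -0.11 and 0.05, no list gene passed over all genes, and all list genes lie between -0.59 and 0.70.

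Aldehyde and carbonyl handling, with the polyol route that aldose reductase starts, had 33 of 34 genes measured, 20 higher and 13 lower. The median was 0.05, and 10 genes (30.3%) had an unadjusted p under 0.05, 7 higher and 3 lower, beside 10.7% of all genes. Aldh1a1, a retinal dehydrogenase, had a mean of 4.87 in the control arrays and values of 5.56 and 5.57 on the Ctcfl arrays, above both controls (0.70, SE 0.11, adjusted p = 0.169). Aldh1l2, a mitochondrial folate enzyme, had -0.59 (SE 0.09, adjusted p = 0.169), and Rdh10, which makes retinal from retinol, had 0.38 (SE 0.08, adjusted p = 0.277).

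Transcription factor NRF2 activates many genes for reducing power and carbonyl defence, several aldo-keto reductases among them. Of 33 listed genes 31 were measured, 8 higher and 23 lower, with a median of -0.11 beside 0.00 over all genes. At an unadjusted p under 0.05 there were 9 (29%), 2 higher and 7 lower. The share over all genes was 10.7%, and 15.4% without the dimmest 33.3% of genes. Gsta4, a glutathione transferase for lipid aldehydes, measured 9.98 and 9.88 on the control arrays and 9.38 and 9.30 on the Ctcfl arrays (-0.59, SE 0.09, adjusted p = 0.156). The cystine transporter gene Slc7a11 had -0.46 (SE 0.09, adjusted p = 0.248) and glutathione reductase, Gsr, had -0.27 (SE 0.08, adjusted p = 0.385). Prdx1, a peroxiredoxin, had 0.38. This list was bright, with 27 of its genes above the upper quartile. The part of these genes in the differences of the aldo-keto reductases was not tested.

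With robust variances and an intensity trend applied together, limma called more genes, 479 in all (2.4%, with 1.1% higher and 1.3% lower). Of the list genes 15 of 163 then passed, 6 higher and 9 lower. In that fit Jak2, Rdh10, Aldh1a1, Hagh, Aldh7a1 and Prdx1 were higher, and Gsta4, Aldh1l2, Hsd17b10, Cbr3, Ptger4, Ptgfr, Hmox1, Nr4a1 and Gsr were lower.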

How the data were processed

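Messenger RNA of 4 samples was measured on Affymetrix arrays, 2 control and 2 Ctcfl. The deposited log2 values are RMA values from the authors' run of Expression Console, per the labels. RMA corrects background, normalises arrays by quantiles and summarises probes; the version and settings are not given in the sources used here. Of 35512 probe sets 1 had no value. Platform annotation of 2016 gave 21789 probe sets 1 symbol, 1621 several, and 12101 are not listed. Each gene took its brightest probe set, giving 19938 genes, with no filter on dim genes. The test of Ctcfl against control was limma 3.58.1 under R 4.3.3 (moderated, two-sided, Benjamini-Hochberg over all genes, threshold 0.05), tested on simulated data. The small number of arrays limits the precision. Promoters and gene order came from RefSeq GRCm38.p6. Figures used matplotlib 3.10.9.

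Members and lists were chosen with earlier results of these data known. Named genes were all members, members of each list past the threshold or else the 3 with the smallest unadjusted p, the 5 profiles nearest to Akr1c18 and its nearest 2 neighbours on each side. Nr4a1, Nr4a3, Stat5a, Stat5b, Prl, Cish, Socs2 and Prdx1 were added after their values were seen. So were further cluster genes, Calm4, Klf6, the marker genes and the genes called with robust variances. Proteins were not used here. Alternatives were median centring, quantile normalisation, dropping the dimmest 33.3% of genes, averaging a gene's probe sets, fitting all probe sets, robust variances with an intensity trend (statmod 1.5.0), ordinary t statistics (none for genes without residual variance), a replicate block and leaving out each array.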

Additional observations from a re-analysis of the deposited data

How the results depend on the processing

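The Akr1c18 difference was -1.24 in the comparison as reported, -1.27 after median centring and -1.21 to -1.27 with an array left out. Median centring moved Akr1a1 from -0.07 to -0.10. With an array left out, Akr1c12 ran from -0.22 to 0.26 and Akr1c14 from -0.03 to 0.19, so both changed sign. Akr1c13 ran from -0.34 to -0.13, Akr1c19 from -0.35 to -0.04, Akr1c6 from 0.25 to 0.46, Akr1b8 from 0.02 to 0.10 and Akr1a1 from -0.08 to -0.05. The other variance models, the blocks and the handling of probe sets leave a difference of group means as it is, so they say nothing about its stability. The number of genes past the threshold, 9 as reported, was 20 without the dimmest 33.3% of genes and 479 by limma when robust variances and an intensity trend were used together. It was 0 in limma over all probe sets (2764 unadjusted), with ordinary t statistics (1940 unadjusted), and with any 1 array left out (1329 to 1663 unadjusted), and Akr1c18 then did not pass, so 0 members did. Pathway list genes past the threshold numbered 0 (31 unadjusted) as reported by limma and 15 with that pair of changes. With the replicate number as a block, 0 genes (1468 unadjusted) and 0 members passed by limma. Same-numbered arrays deviated with a correlation of -0.102 across genes, and the crossed pairing, chosen after seeing the data, gave 0 genes (2105 unadjusted) and 0 members. No detection calls were used, so the 4 members below the lower quartile cannot be separated from background.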
